A study of Mus musculus with 4 samples.

Results

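The genes described here are 10 cytosolic heat-shock chaperone genes of the mouse: the transcription factor gene Hsf1 and the chaperone genes Hspa1a, Hspa1b, Hspa8, Hsph1, Hsp90aa1, Hsp90ab1, Dnaja1, Dnajb1 and Hspb1. They were taken by gene symbol, and each matched exactly 1 of the 54838 genes listed in the files. RNA was sequenced from Hepa1-6, an established mouse hepatocellular carcinoma line, with 2 samples of cells wild type for Acvr2a (NC 1 and NC 2) and 2 of Acvr2a knockout cells (KO 1 and KO 2). Acvr2a encodes a type II receptor for activin. The design text calls the knockout cells subclones, and the labels do not say whether KO 1 and KO 2 are separate subclones, how the knockout was made, or whether samples came from separate cultures. The p-values below therefore rest only on the spread between these samples. That spread is estimated largely across genes and may be technical.

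Chaperones bind unfolded protein and help it fold. In the cytosol, HSP70 proteins bind short hydrophobic stretches, J-domain proteins bring them clients and stimulate their ATPase, HSP110 proteins exchange their nucleotide, and HSP90 proteins act later on clients such as kinases and steroid receptors. When unfolded protein accumulates, HSF1 forms trimers and binds heat-shock elements, arrays of the unit GAA in alternating orientation, in the promoters of chaperone genes. Some family members are made constitutively in most cells, such as Hspa8 and Hsp90ab1, and others are known mainly as stress-inducible, such as Hspa1a and Hspa1b.

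The libraries held between 11597923 and 13910582 rounded counts, and 12510 genes passed the filter on low counts. The lineage markers of the labelled cell type were present except Ttr (0 or 1 count per library), with Apoa1 at 17 to 39 counts. Of 10 markers of other liver cell types, Cd3e, Cdh5 and Lrat had no count in any library and Ptprc had at most 2. Dcn, a marker of stellate cells and fibroblasts, had 16689 to 22717 counts, and nearly all of the summed marker level of 1473 and 1483 CPM (counts scaled to the library total) in NC and 1616 and 1693 CPM in KO was Dcn, which did not pass the test. Des, a further marker of that list, had 43 and 55 counts in NC against 126 in each KO library. The summed level of 8 hepatocyte markers was 5646 and 5189 CPM in NC against 4431 and 4290 CPM in KO, with 1 of 7 tested markers higher and 3 lower. Apoe carried this difference in the sum: without it the sums were 3160 and 2914 CPM in NC against 3103 and 3123 CPM in KO. Within that remainder, markers moved in opposite directions. Afp and Hnf4a were also called lower. Afp had 281 and 254 CPM in NC against 114 and 116 in KO, and Hnf4a 217 and 227 against 117 and 106. Alb, the 1 marker called higher, had 840 and 758 CPM in NC against 965 and 1151 in KO. The part of these markers in the results below was not tested. Wherever a pair of values is given for a group, replicate 1 comes first. The targeted gene Acvr2a had 81 and 108 counts in the NC libraries against 75 and 97 in the KO libraries, with a log2 difference of -0.21 (SE 0.20; edgeR quasi-likelihood, adjusted p = 0.433), so its RNA total did not separate the groups, which are named by their labels.

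The promoters of the members that were at or near 0 counts, and of the members Hsph1 and Dnaja1, are printed to show the heat-shock units they carry. RefSeq windows on GRCm38.p6, from 250 bases before to 50 bases after an annotated start, were found for 6 of the 10 members. Printed are the first listed windows of the members where paired units were found, which leaves out Dnajb1. Each is written 5′ to 3′ on the strand of the gene, with capitals marking a pair of inverted units, GAANNTTC or TTCNNGAA, which read the same way on both strands and can overlap each other.
Hspa1a (chr17:34972107-34972406, minus strand): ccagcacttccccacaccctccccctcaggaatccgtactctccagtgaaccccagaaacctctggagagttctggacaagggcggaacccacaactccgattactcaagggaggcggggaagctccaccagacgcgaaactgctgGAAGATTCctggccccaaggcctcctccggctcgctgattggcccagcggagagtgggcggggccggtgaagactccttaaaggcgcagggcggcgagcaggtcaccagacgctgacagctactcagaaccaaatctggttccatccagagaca
Hspa1b (chr17:34959189-34959488, minus strand): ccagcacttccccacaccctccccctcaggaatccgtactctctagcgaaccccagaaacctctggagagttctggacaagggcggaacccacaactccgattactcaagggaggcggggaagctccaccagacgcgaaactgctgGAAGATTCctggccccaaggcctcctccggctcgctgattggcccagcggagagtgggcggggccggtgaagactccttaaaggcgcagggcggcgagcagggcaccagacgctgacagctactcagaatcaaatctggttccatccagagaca
Hspb1 (chr5:135887669-135887968, plus strand): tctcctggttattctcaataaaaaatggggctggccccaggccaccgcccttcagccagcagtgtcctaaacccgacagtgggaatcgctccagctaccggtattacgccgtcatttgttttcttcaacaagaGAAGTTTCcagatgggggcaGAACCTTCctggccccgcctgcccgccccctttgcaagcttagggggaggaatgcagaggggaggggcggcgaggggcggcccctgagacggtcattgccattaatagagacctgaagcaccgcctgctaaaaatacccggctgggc
Hsph1 (chr5:149636287-149636586, minus strand): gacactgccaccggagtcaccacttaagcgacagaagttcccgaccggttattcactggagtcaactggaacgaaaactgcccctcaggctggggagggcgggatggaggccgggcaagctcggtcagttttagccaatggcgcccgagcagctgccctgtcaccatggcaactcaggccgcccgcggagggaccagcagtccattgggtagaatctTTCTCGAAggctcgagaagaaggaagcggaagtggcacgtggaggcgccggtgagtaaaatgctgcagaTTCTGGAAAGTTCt
Dnaja1 (chr4:40722218-40722517, plus strand): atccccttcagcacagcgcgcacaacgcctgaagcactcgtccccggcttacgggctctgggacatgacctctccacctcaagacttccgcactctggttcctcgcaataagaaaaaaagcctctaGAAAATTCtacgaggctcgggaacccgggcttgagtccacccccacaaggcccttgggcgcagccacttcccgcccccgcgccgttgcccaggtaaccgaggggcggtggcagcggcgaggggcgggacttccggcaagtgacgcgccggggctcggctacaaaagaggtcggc

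A pair of inverted units stood in at least 1 window of 5 of these 6 members. The same letters occur in the windows of 17.0% of the 27025 genes in the table, and in 15.1% of its 32851 windows. Hspa1a and Hspa1b carried a pair at the same place, from base -104 to -97 counted from the start site, and their 300-base windows differed at 4 positions. Hspb1, which encodes a small heat-shock protein that holds unfolded protein without ATP, carried pairs at -117 to -110 and -97 to -90. Dnaja1 carried a pair at -124 to -117 in the window of its first start, and none in its other windows. Hsph1 carried a pair at -33 to -26, and a run of 3 units, GAA and TTC in alternation with any 2 bases between neighbours, searched on both strands and present in the windows of 0.662% of genes, from base 37 to 49 after its first listed start. These letters were not found in the windows of Dnajb1. A match is a description of the sequence and not a measured binding site.

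**Figure D1:**
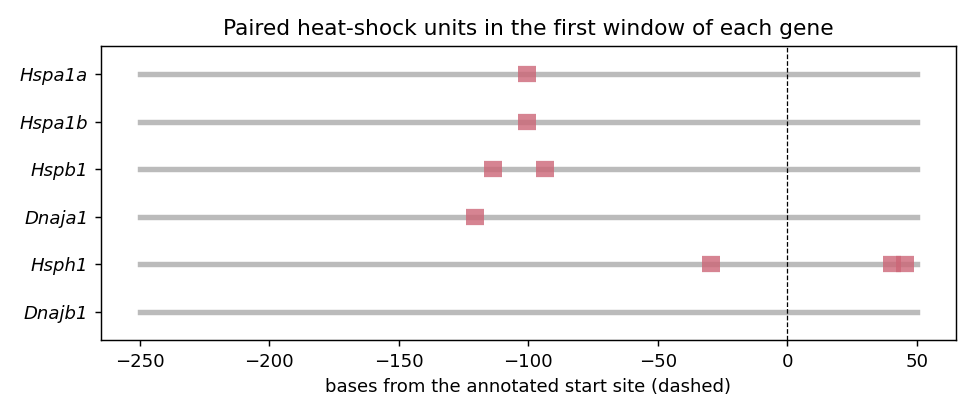
Positions of paired inverted heat-shock units (coloured blocks) in the first listed RefSeq window of the 6 matched members, in bases from the annotated start site (dashed line; grey bars span each 300-base window). Hspa1a and Hspa1b share a block at -104, Hspb1 has 2 blocks upstream, Hsph1 has blocks on both sides of its start, and Dnajb1 has none.

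The inducible HSP70 genes were at or near 0 in every library. Hspa1a (chromosome 17, 34969190 to 34972156, 1 exon, overlapping an exon of Gm20481 on the other strand) had 0 counts in all 4 libraries. Hspa1b (chromosome 17, 34956436 to 34959238, 1 exon) had 1 count in KO 2 and 0 in each of the other 3 libraries. The transcripts of these paralogs are 94.4% identical over 2679 aligned bases, with an unbroken identical run of 638 bases, so reads from them can be hard to assign. Summed, the pair had 1 count in the whole data set. At these depths a count of 0 allows a level of up to 0.217 CPM in NC 2 and 0.264 CPM in NC 1 (3 counts of the scaled library total, counting error only). How reads that fit both copies were treated in the alignment is not given in the sources used here. If such reads were dropped, neither these counts nor their sum would show them, so the bound holds only for reads that were counted. Neither gene entered the test, and no fold change is given.

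The small heat-shock protein gene Hspb1 (chromosome 5, 135887919 to 135889563) was likewise near 0. It had 0 counts in both NC libraries, 4 in KO 1 and 2 in KO 2. The KO libraries were the higher ones, at 0.304 and 0.148 CPM, but these levels lie at about what a count of 0 allows in NC. Hspb1 did not pass the filter on low counts and was not tested.

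The other 7 members were expressed in every library. Levels of different genes are compared per transcript length, in TPM (transcript abundance scaled for length and library total, as deposited). Hspa8, the constitutive HSP70, was the highest with 2995 and 2953 TPM in the NC libraries against 2263 and 2065 TPM in the KO libraries. It ranked at position 50 among the 12510 tested genes by mean TPM. Hsp90ab1, the constitutive HSP90, followed with 1337 and 1539 TPM in NC and 1320 and 1205 in KO, at position 98. These 2 genes together made up 87.4% to 90.3% of the members' summed TPM. Hsp90aa1, the other cytosolic HSP90 gene, stood at 191 to 219 TPM, Dnaja1 at 111 to 140, Hsph1 at 45.1 to 80.8, Hsf1 at 57.0 to 65.2 and Dnajb1 at 28.7 to 35.2. Every neighbouring pair in this order was separated in all libraries except Hsph1 and Hsf1, whose ranges overlapped.

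**Figure D2:**
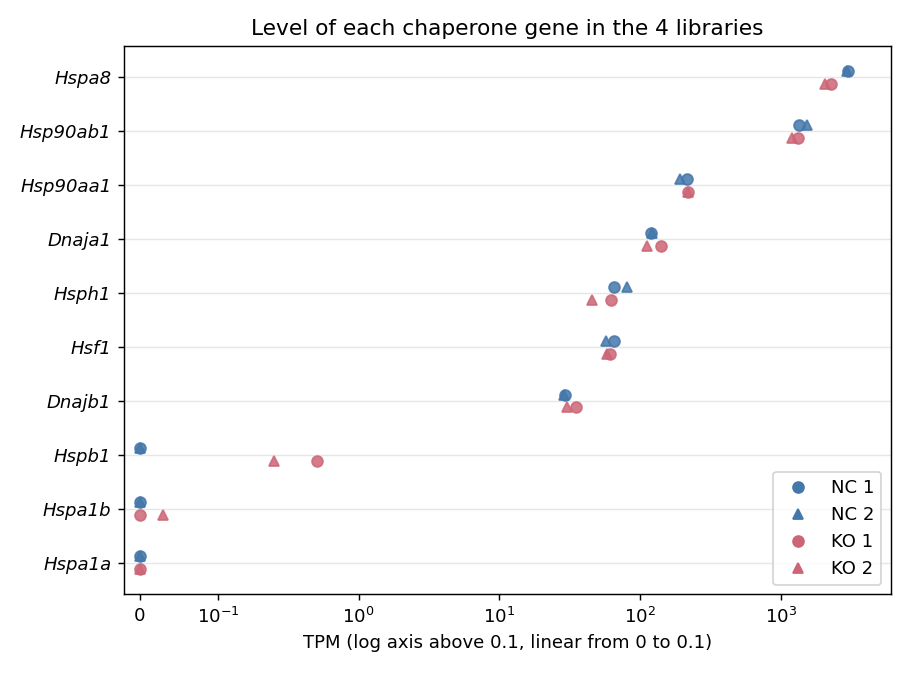
TPM of the 10 members in each library (circles and triangles are replicates 1 and 2; colours are the groups), on an axis that is logarithmic above 0.1 and linear from 0 to 0.1. Hspa8 and Hsp90ab1 lie above 1200 TPM in all 4 libraries, 5 members lie between 28.7 and 219 TPM, and Hspa1a, Hspa1b and Hspb1 lie at or near 0.

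The TPM level of Hspa8 depends on how its reads were divided among 10 annotated transcripts. The mean transcript length that the files give for it, weighted by the estimated transcript shares, was 1213 and 1256 bases in NC and 1326 and 1299 bases in KO, while its longest coding transcript has 2394 bases. Its expected counts were fractional in all 4 libraries, as were those of Hsp90aa1 and Dnaja1, which RSEM gives where reads fit more than 1 gene. The counts of the other 7 members were whole to the 2 decimals of the files.

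Hsph1, Hspa8 and Hsp90ab1 were lower in KO, and they were the 3 of 7 tested members to pass (edgeR quasi-likelihood, threshold of 0.05 on the adjusted p). That is 42.9% of the tested members, close to the 37.9% of all 12510 tested genes called in either direction. Of those tested genes, 18.2% were called lower and 19.7% higher in KO. At an unadjusted p under 0.05, 5 members were called and 0 of these were higher, where 46.6% of all tested genes were called and 23.8% were called higher. DESeq2 called 3 members at its adjusted p, each lower, where it called 25.7% of all tested genes and 12.4% as lower. The median log2 fold change of the 7 members was -0.23, against -0.0037 over all tested genes. With limma on log2(TPM + 1) and the filter, the members' median was -0.036, against 0.060 over all tested genes. In bulk RNA, fewer cells expressing a gene and less RNA of it per cell cannot be told apart. Of all genes called, 51.9% were higher in KO, and with limma on log2(TPM + 1) 68.0% were.

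**Figure D3:**
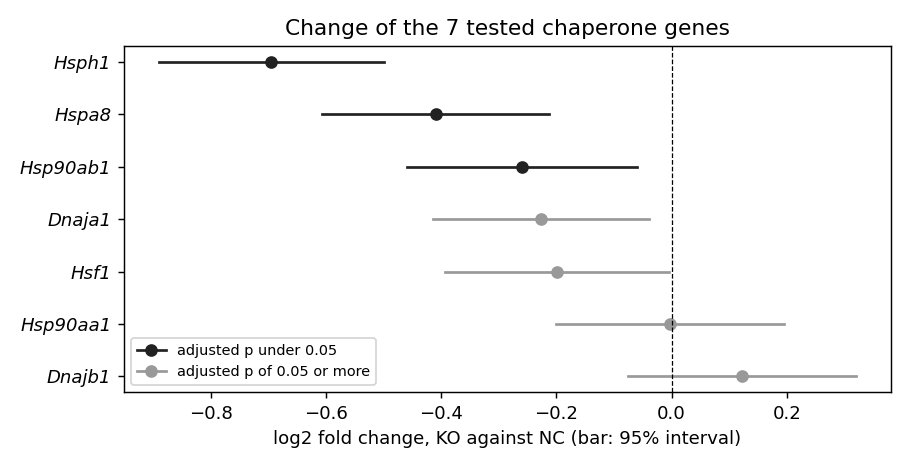
Log2 fold change of each tested member, KO against NC, with its 95% interval (edgeR quasi-likelihood; black, adjusted p under 0.05; grey, 0.05 or more). Hsph1 is lowest at -0.70, Hspa8 and Hsp90ab1 follow, and the intervals of Hsp90aa1 and Dnajb1 include 0.

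Hsph1 encodes HSP110, the nucleotide exchange factor that releases clients from HSP70. On counts it had the largest change of the members, while on log2(TPM + 1) Hspa8 and Hsph1 both stood at -0.46. The gene lies on chromosome 5 (149614287 to 149636376, minus strand, 19 merged exons, no overlapping exons of other genes). It had 193.0 and 191.5 CPM in the NC libraries against 127.5 and 109.9 CPM in the KO libraries. In CPM, both KO libraries were below both NC libraries, by far more than the gap between replicates. The level fell by 38.2%, from 192.2 ± 1.04 to 118.7 ± 12.4 CPM (SD, n = 2). Its log2 fold change was -0.70 (SE 0.095, 95% interval -0.89 to -0.50; edgeR quasi-likelihood, adjusted p = 2.14e-06). In TPM, Hsph1 stood at 65.5 and 80.8 in NC against 61.7 and 45.1 in KO. There the replicates differed by more than the nearest libraries of the groups did. On the TPM scale the direction was the same, -0.46 on log2(TPM + 1), but the call was lost (limma, adjusted p = 0.0983). Its estimated mean transcript length was 3373 and 2890 bases in NC and 2634 and 2946 in KO, so TPM and counts scale differently between libraries.

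Hspa8 encodes HSC70, the constitutive HSP70, and lies on chromosome 9 (40800984 to 40810087), where its exons overlap the snoRNA genes Snord14c, Snord14d and Snord14e on the same strand. It had 2745 and 2677 CPM in the NC libraries against 2115 and 1967 CPM in the KO libraries. The groups did not overlap. The level fell by 24.7%, from 2711 ± 47.8 to 2041 ± 105 CPM (SD, n = 2). Its log2 fold change was -0.41 (SE 0.096, 95% interval -0.61 to -0.21; edgeR quasi-likelihood, adjusted p = 0.00135). Hspa8 was the 1 member that also passed on log2(TPM + 1) with the filter (-0.46; limma, adjusted p = 0.0369), and it lost the call without that filter (adjusted p = 0.160).

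Of the HSP90 genes, Hsp90ab1 fell and Hsp90aa1 did not pass; the difference between their fold changes was not tested. Hsp90ab1 (chromosome 17, 45567775 to 45573271) had 2823 and 3078 CPM in the NC libraries against 2529 and 2400 CPM in the KO libraries, with no overlap between the groups. It fell by 16.5%, from 2950 ± 180 to 2464 ± 91.6 CPM (SD, n = 2). Its log2 fold change was -0.26 (SE 0.097, 95% interval -0.46 to -0.061; edgeR quasi-likelihood, adjusted p = 0.0356). This call rested on single libraries: it was lost without NC 2 (-0.20, adjusted p = 0.229), without KO 2 (-0.22, adjusted p = 0.0936) and on log2(TPM + 1) (-0.19; limma, adjusted p = 0.324). Hsp90aa1 (chromosome 12, 110690605 to 110702728), known as the more stress-responsive HSP90 gene, had 607.3 and 516.2 CPM in the NC libraries against 566.2 and 554.4 CPM in the KO libraries. The KO values lay between the NC values in CPM, while in TPM both KO libraries were above both NC libraries. Its log2 fold change was -0.0035 (SE 0.097, 95% interval -0.20 to 0.19, adjusted p = 0.983) and took the other sign on log2(TPM + 1), at 0.11. The CPM of Hsp90ab1 over that of Hsp90aa1 was 4.65 and 5.96 in NC and 4.47 and 4.33 in KO. For such a ratio, 2 libraries against 2 cannot give an exact two-sided permutation p below 0.333.

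Neither J-domain gene passed the test. Dnaja1, which encodes a J-domain partner of HSP70 (chromosome 4, 40722150 to 40737149), overlaps exons of Mir207 on its own strand and of Gm6297 and Smu1 on the other. It had 254.5 and 245.4 CPM in the NC libraries against 224.9 and 202.3 CPM in the KO libraries, without overlap. The log2 difference of -0.23 (SE 0.092, 95% interval -0.41 to -0.039) missed the threshold (edgeR quasi-likelihood, adjusted p = 0.0519), passed it without KO 1 (-0.30, adjusted p = 0.0163) and with the robust fit (adjusted p = 0.0382), and took the other sign on log2(TPM + 1), at 0.051. The mean transcript length of Dnaja1 was 2525 and 2484 bases in NC and 2103 and 2264 in KO, and on the TPM scale the groups overlapped. Dnajb1 (chromosome 8, 83608193 to 83612653), whose J-domain protein helps HSP70 and HSP110 to dissolve aggregates, had 75.6 and 70.8 CPM in the NC libraries against 83.7 and 75.4 CPM in the KO libraries. In CPM, KO 2 lay between the NC values. In TPM both KO libraries were above both NC libraries, at 35.22 and 30.41 against 29.15 and 28.72. The log2 difference of Dnajb1, 0.12 (SE 0.096, 95% interval -0.075 to 0.32; edgeR quasi-likelihood, adjusted p = 0.336), did not pass. The CPM of Dnaja1 over that of Dnajb1 was 3.37 and 3.47 for NC against 2.69 and 2.68 for KO. In TPM this ratio was 4.06 and 4.26 in NC and 3.98 and 3.65 in KO.

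Hsf1, the gene of the main heat-shock transcription factor (chromosome 15, 76477422 to 76501913), had 87.5 and 81.2 CPM in the NC libraries against 75.7 and 71.2 CPM in the KO libraries. The KO libraries were lower without overlap, but the difference of -0.20 on the log2 scale (SE 0.095, 95% interval -0.39 to -0.0047) did not pass (edgeR quasi-likelihood, adjusted p = 0.0993). On log2(TPM + 1) it was -0.036, and the groups overlapped. In CPM, 5 of the 7 tested members had NC and KO libraries without overlap, which was the case for 69.4% of all tested genes.

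**Figure D4:**
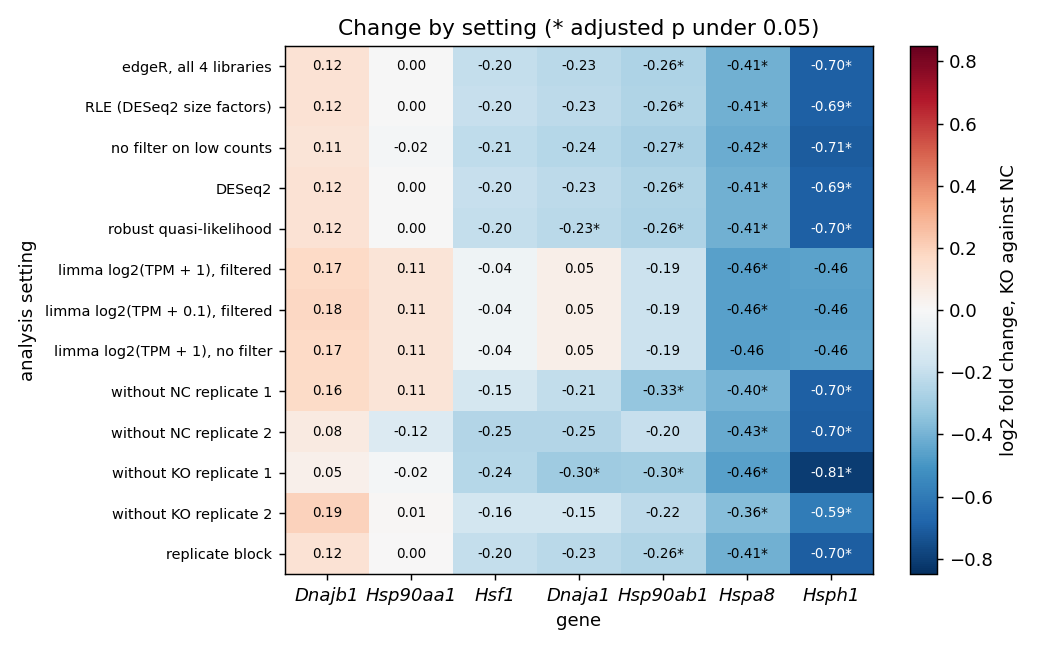
Log2 fold change of the 7 tested members, KO against NC, under each analysis setting (rows; colour and printed value; * adjusted p under 0.05). Hspa8, Hsph1, Hsp90ab1 and Hsf1 are negative in all 13 rows and Dnajb1 positive. Hsp90aa1 and Dnaja1 change sign on the TPM scale, and Hsp90aa1 also without NC 1, without KO 2 and with the replicate block.

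Further genes of chaperone systems were read from 11 lists written from general knowledge. Of their 86 genes, 77 were tested, of which 25 fell, 3 rose and 49 did not pass. Their median log2 fold change was -0.15, and 36.4% were called, against 37.9% of all tested genes. By direction, 18.2% of all tested genes were called lower in KO and 19.7% higher, where these 77 held 25 lower and 3 higher. The lists as a set were not tested. The count of 28 calls was 17 without KO 2 (13 lower, 4 higher) and 10 with limma on log2(TPM + 1) (7 lower, 3 higher).

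Genes for partners of HSP70 and HSP90 were among those that fell. Over all tested genes, 37.9% were called in either direction and 18.2% were called lower. Of 10 HSP70 nucleotide exchange factors and co-chaperones, 4 fell and 6 did not pass, with a median of -0.13. Hikeshi, the carrier that brings HSP70 into the nucleus, fell by 0.93 on the log2 scale (edgeR quasi-likelihood, adjusted p = 8.72e-07), and its counts were 409 and 505 in NC against 252 and 256 in KO. Hspbp1, a nucleotide exchange factor of HSP70, fell by 0.85 (adjusted p = 1.22e-05). Bag1 and St13 fell by 0.37 and 0.29, and 2 of the 4 calls were left without KO 2. Of 18 HSP90 co-chaperone genes, 7 fell and 11 did not pass, with a median of -0.21. Chordc1 fell by 0.77, Ahsa1, which encodes the activator of the HSP90 ATPase, by 0.64, Cacybp by 0.60 and Ptges3, which encodes p23, by 0.55 (adjusted p from 1.31e-05 to 4.94e-05). Without KO 1, 11 of the 18 were called, and on log2(TPM + 1) with the filter 3 were. On log2(TPM + 1) with the filter, Hikeshi, Hspbp1, Ahsa1, Cacybp and Ptges3 kept their calls, and Chordc1, Bag1 and St13 lost them.

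Of 6 mitochondrial chaperone genes, 5 fell and 1 did not pass, with a median of -0.30, where 18.2% of all tested genes fell. The list as a group was not tested. Hspd1 and Hspe1, which encode the chaperonin HSP60 and its lid, are divergent neighbours on chromosome 1 whose exons overlap, and fell by 0.51 and 0.52 (edgeR quasi-likelihood, adjusted p = 0.000179 and 0.000182). Hspa9, the mitochondrial HSP70 gene, fell by 0.31 and Trap1, the mitochondrial HSP90 gene, by 0.27. The count was 3 without NC 1, without KO 2 and with DESeq2, and 1 on log2(TPM + 1) with the filter. Of 3 paralogs in the endoplasmic reticulum, 1 rose. Hspa5, which encodes BiP, the HSP70 of that compartment, rose by 0.47 on the log2 scale (adjusted p = 0.000222): its NC libraries had 525.0 and 517.0 CPM, its KO libraries 749.1 and 697.2 CPM. Hsp90b1 (0.21, adjusted p = 0.0777) and Hyou1 (-0.044, adjusted p = 0.741), both named for completing this list of 3, did not pass. The difference between compartments was not tested.

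The counts that follow stand beside 37.9% of all tested genes called in either direction and 18.2% called lower. Among the other folding machines, 3 of 8 subunit genes of the TRiC chaperonin fell, with Cct3 at -0.34, Cct6a at -0.30 and Tcp1 at -0.23. The count was 1 without NC 1 and 1 without KO 2. Cct3, Cct6a and Tcp1 lost their calls on log2(TPM + 1), and Tcp1 lost its under 9 of 12 alternatives in all. Of 6 prefoldin subunits 2 fell, Vbp1 by 0.60 and Pfdn4 by 0.37, and Pfdn4 lost its call without NC 1, KO 1 or KO 2, with DESeq2 and on log2(TPM + 1). Of 11 tested J-domain genes outside the members, Dnajc2 (-0.36) and Dnaja2 (-0.25) fell, and both lost their calls without NC 1, without KO 2, with DESeq2 and on log2(TPM + 1). Hspb6 (-0.33), 1 of 3 tested small heat-shock protein genes, and Hsf2 (-0.41), 1 of 3 tested genes of heat-shock factors and their regulators, fell, and both calls were lost without NC 2, without KO 2, with DESeq2 and on log2(TPM + 1), that of Hsf2 also without NC 1.

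The other genes that rose were Hspa2 and Hmox1. Hspa2, a further cytosolic HSP70 gene known for its role in the testis, had 17 and 27 counts in its NC libraries against 63 and 68 in its KO libraries. It rose by 1.49 on the log2 scale (SE 0.30; edgeR quasi-likelihood, adjusted p = 0.000322), and was the 1 of 6 tested genes of its list that passed, against 2 without NC 1 and 3 without KO 1. Hmox1, which encodes heme oxygenase and answers to oxidative stress as well as heat, rose by 1.13 (SE 0.11, adjusted p = 4.49e-09): its NC libraries had 36.6 and 36.9 CPM, its KO libraries 72.6 and 88.0 CPM. Hmox1 was the 1 call in the list of other heat-inducible genes, which held 2 calls without KO 2.

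**Figure D5:**
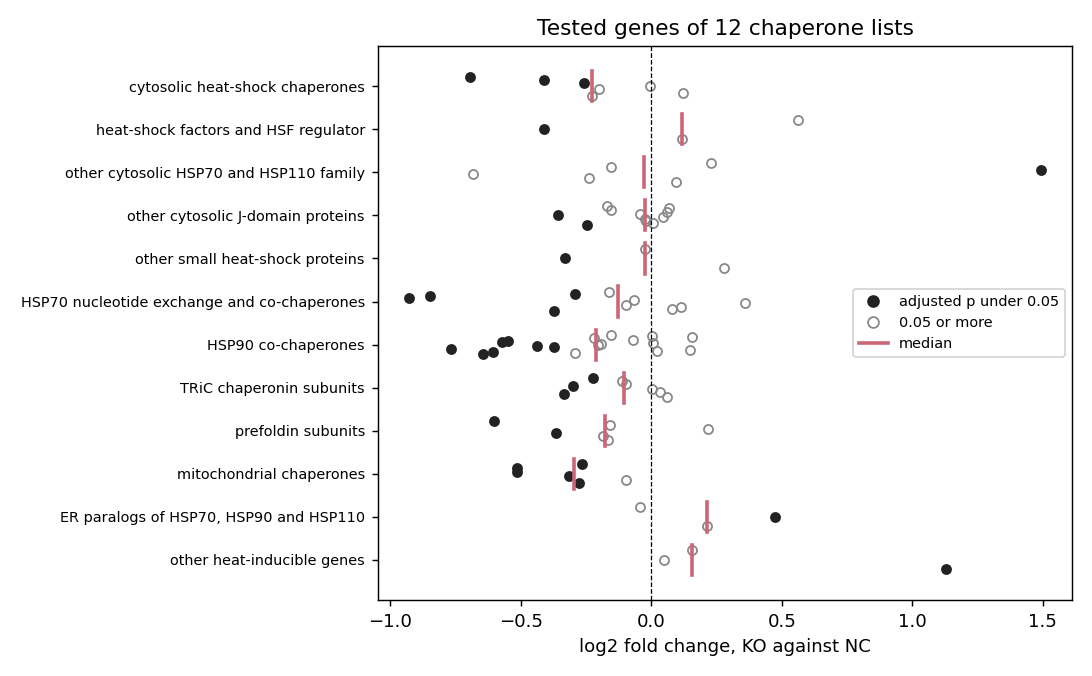
Log2 fold change, KO against NC, of each tested gene in the 12 lists (filled, adjusted p under 0.05 in edgeR's quasi-likelihood test; open, 0.05 or more; coloured bars, list medians). The mitochondrial list has its median at -0.30 and the endoplasmic reticulum list at 0.21, and Hspa2 and Hmox1 stand apart on the right.

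Of the 77 tested genes in the 11 lists, those whose profile lay nearest to the mean profile of the 7 tested members were Trap1, Hspa14, Pfdn2, Tcp1 and Dnaja2. The measure was the root mean square difference of centred log2 CPM over the 4 libraries, and it ran from 0.022 for Trap1 to 0.042 for Dnaja2. The mean profile itself stood at 0.15 and 0.090 for the NC libraries against -0.061 and -0.18 for the KO libraries, so KO 2 was the lowest. Pfdn2 took the other sign on log2(TPM + 1), at 0.19.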

How the data were processed

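RNA of 2 NC and 2 KO samples was extracted with TRIzol, treated with DNase and made into strand-keeping libraries, per the labels' protocols. FastQC, STAR, RSEM and DESeq2 and the build GRCm38 (mm10) are named in the submitters' processing notes, without roles. Versions, annotation release and the strand setting of the counting are not given in the sources used here. Expected counts are the raw estimated counts that the authors deposited for each gene, and RSEM divides reads that fit several genes among them. The TPM and FPKM that the authors deposited are scaled for length and library total; TPM served for levels across genes and as an alternative, and FPKM was not used.

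Expected counts were rounded, which changed a library total by at most 0.000188%. Genes were kept by filterByExpr (12510 kept, 8069 with a count left out, 34259 without one), scaled by TMM (factors 0.981 to 1.02) and compared with edgeR's quasi-likelihood test (edgeR 4.0.16, R 4.3.3), group as the only term. P-values were adjusted by Benjamini-Hochberg over all genes tested, with a threshold of 0.05. CPM are counts per TMM-scaled library. Standard errors come from the fold change and its F statistic. Precision is limited by 2 samples per group and 25.8 prior degrees of freedom shared across genes, and counting intervals cover counting error only. Alternatives were DESeq2 1.42.0, RLE scaling, no filter, a robust fit, limma 3.58.1 on log2(TPM + 1) and log2(TPM + 0.1), a replicate term, and leaving out each library.

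Positions, exons and transcripts come from GENCODE M21 (GRCm38), which 53947 of the listed IDs matched with version and 54809 without. Promoter windows are RefSeq's on GRCm38.p6. Named are all 10 members, Acvr2a, up to 4 genes per further list with the lowest p past the threshold, and the 5 genes nearest in profile; other names were chosen after their values were seen. The members and lists were chosen with earlier results of these data known. Replicates differed beyond sampling noise: the chi-square per degree of freedom between replicates was 7.15 in NC and 10.0 in KO.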

Additional observations from a re-analysis of the deposited data

How the results depend on the processing

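The number of genes past the threshold was 4741 and stayed within 1.5 times of that with RLE scaling, no filter, DESeq2, the robust fit and each library left out (3507 to 4488), and the number of members, 3, ran from 2 to 4 with a library left out. On log2(TPM + 1) with the filter there were 2158 genes (1467 higher, 691 lower) and 1 member, and on log2(TPM + 0.1) 2099 genes (1427 higher, 672 lower) and 1 member. Without a filter, limma on log2(TPM + 1) called 0 genes and 0 members, with 4506 of 20640 genes and 2 members at an unadjusted p under 0.05. DESeq2, on the 12510 genes past the filter, called 3217 genes and 3 members at an adjusted p under 0.05, and 4470 genes and 4 members at an unadjusted one. The cause was not tested.

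Of 84 values of the 7 tested members over 12 alternatives, 64 kept direction and call, 9 lost the call, 2 gained it and 9 took the other sign. The last were Hsp90aa1 on log2(TPM + 1) with and without the filter (0.11 in both), on log2(TPM + 0.1) (0.11), without NC 1 (0.11), without KO 2 (0.0097; left out in turn, the range was -0.12 to 0.11) and with the replicate block (0.00088), and Dnaja1 on log2(TPM + 1) with and without the filter (0.051 in both) and on log2(TPM + 0.1) (0.051). Pfdn2 reversed on the same scales (0.19 in each). Summing each member with its named pseudogenes changed nothing, since the 1 such row, for Dnaja1, held 0 counts. This sum could not show reads shared with genes of other names. Such sharing was not tested for Hspa8, Hsp90aa1 and Dnaja1, whose counts were fractional.

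Same-numbered libraries did not deviate together (r = -0.012 over tested genes), and the labels give no pairing. With the replicate block 5006 genes and 3 members passed, and the same 3 members were called. At these depths Hspa1a, Hspa1b and Hspb1 could not be tested.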

Other observations

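Several chaperone genes besides the members were at or near 0 in these cells, named here after their values were seen. Dnaja4, a J-domain gene, Hspa12a, a distant HSP70 relative, Hspb3 and Hsbp1l1 had no count in any library. Serpinh1, which encodes the collagen chaperone HSP47, had 1 count in the whole data set, in KO 1. Of the small heat-shock protein genes, Hspb8 was the one with the most counts, with 154 and 168 CPM in the NC libraries against 154 and 163 CPM in the KO libraries. Its log2 difference of -0.023 did not pass the test (edgeR quasi-likelihood, adjusted p = 0.870).

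Hspa1l, the HSP70 gene next to Hspa1a and Hspa1b, differed more between the NC libraries than between the groups, with 7 and 51 counts in NC against 13 and 24 in KO. Bag3, which encodes a co-chaperone of HSP70 known to follow HSF1, was at 114.7 and 122.8 CPM in NC and 135.2 and 121.9 in KO, with a log2 fold change of 0.11 (adjusted p = 0.361).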
